A study of Mus musculus with 15 samples.

Results

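The 10 genes described here encode core parts of the machinery that carries a mammalian cell through G1, the gap between division and DNA replication. They are the D-type cyclins Ccnd1, Ccnd2 and Ccnd3, the E-type cyclins Ccne1 and Ccne2, the cyclin-dependent kinases (CDKs) Cdk2, Cdk4 and Cdk6, and the CDK inhibitors Cdkn1b (the protein p27) and Cdkn2c (the protein p18). They were chosen by name, and all 10 were found among the 54838 genes counted. All 10 also passed the filter on low counts, which left 17144 genes for testing.

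RNA was sequenced from 15 libraries of mouse spleen B cells, 3 in each of 5 groups, with letters A, B and C in the titles of every group. All mice were wild-type males, 3 months old, immunised with sheep red blood cells, and spleens were collected on day 9. Cells were enriched for the surface protein B220 and sorted as naive or as germinal centre (GC) B cells. The other groups, activated CD40, activated CpG and activated LPS, came from naive cells kept for 5 days in a medium made for embryonic stem cells. The labels give 80 ng/ml mouse IL-4 with 5 µg/ml of antibody to CD40, a co-stimulatory receptor. They give 2 µM CpG oligonucleotide, which engages TLR9, and 25 µg/ml lipopolysaccharide (LPS), which engages TLR4, but leave unclear whether the CpG and LPS cultures also received IL-4. The labels do not say what the letters stand for or whether animals were pooled. The p-values therefore reflect differences among libraries that may be only technical replicates.

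As background, D-type cyclins bind Cdk4 and Cdk6 when a cell receives growth signals, and these complexes begin to phosphorylate the retinoblastoma protein (RB). RB then releases E2F transcription factors, whose targets include the E-type cyclins and the genes of DNA replication. Cyclin E with Cdk2 completes the step into S phase. Cdkn2c belongs to the INK4 family, which blocks Cdk4 and Cdk6, and Cdkn1b to the CIP/KIP family, which blocks Cdk2 complexes. Resting B cells hold this machinery low and restart it on activation. GC B cells are among the fastest dividing cells of the body, and Ccnd3 is known to be needed for their expansion.

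Libraries held 25397624 to 36272197 counts, and between 11523 and 19320 genes had a count. The naive libraries A, B and C had 13920, 11523 and 18866 such genes, and the GC and activated libraries 16314 to 19320. Values below are CPM, counts scaled to one library size after adjustment by TMM, a scaling that assumes most genes do not differ between libraries. Summed CPM of 6 B cell markers, all with counts in every group, ranged from 10362 to 13214 in naive, from 7931 to 8862 in GC and from 4639 to 5979.9 in activated libraries. The 6 follicular markers summed to between 6888 and 8577 in naive and between 312 and 442 in GC libraries, and the 6 GC markers to between 71.4 and 129 and between 2063 and 2323. T cell markers summed to at most 7.86 in all libraries, a value reached in a naive library. Cd3e and Cd8a were at 0 in naive and GC cells. Cd3g (mean 1.91 CPM), Cd3d (0.945), Trac (0.66) and Cd4 (0.495) had counts in naive cells, and at lower means in GC cells. The 6 erythroid markers ranged from 3.3 to 298 in naive libraries, highest in library B, against 4.09 to 7.42 in GC. Plasma cell markers summed to 302 to 347 in naive, 1452 to 1838 in GC and 1143 to 4907 in activated libraries. The GC sum was mostly Jchain (mean 13.5 in naive, 1451 CPM in GC). Xbp1 (109 and 168), Prdm1 (1.34 and 5.85) and Tnfrsf17 (0 and 0.433) were also higher in GC. Irf4 (197 and 29.3) and Sdc1 (6.01 and 4.27) were lower. With CD40, Jchain ranged from 17 to 2132 CPM and Xbp1 from 825 to 1405. NK cell markers summed to 9.02 to 26.2, 0.218 to 0.892 and 3.79 to 9.6, and myeloid markers to 8.22 to 22, 10.2 to 16.4 and 26.8 to 48. The part of these lists in the results was not tested.

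The promoter stretches of Cdk4 and Cdk2 are shown because both kinases rose in every comparison with naive cells and because their start regions hold repeated matches to motifs of cell cycle regulators. Sequences are RefSeq's (GRCm38.p6), upstream of each start and read along the gene's strand. Cdk4 is shown at chr10:127063338-127063534, plus strand, and Cdk2 at chr10:128705052-128705216, minus strand. Capitals mark the E-box CACGTG, a word bound by Myc and related factors, in Cdk4, and an E2F word in Cdk2.
Cdk4: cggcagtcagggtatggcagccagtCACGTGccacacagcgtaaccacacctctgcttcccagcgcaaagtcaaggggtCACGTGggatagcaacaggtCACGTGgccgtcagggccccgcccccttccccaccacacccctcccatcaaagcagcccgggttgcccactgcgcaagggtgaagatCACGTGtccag
Cdk2: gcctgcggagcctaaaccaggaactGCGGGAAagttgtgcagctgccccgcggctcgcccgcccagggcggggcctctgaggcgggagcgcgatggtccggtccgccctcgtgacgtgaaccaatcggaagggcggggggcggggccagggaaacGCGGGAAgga
The E2F word in Cdk2 is TTCCCGC read on the other strand. The search also took TTGGCGC, another E2F form, and the related forms TTCGCGC and, as the last of the set that was searched, TTGCCGC. All words were searched on both strands in the 250 bases before the start, and CACGTG, which reads the same on both, was counted once. Of 32851 promoters, 7.89% held an E2F word and 6.02% held the E-box. Cdk4 held 4 E-boxes, a number reached in 7 promoters (0.0213%), and Cdk2 held 2 E2F words, a number reached in 255 (0.776%). Both genes were picked partly for these repeats, so the percentages are a description and not a test. There were 9 entries, for 7 of the 10 members. Among the other 5, Cdkn2c held 1 E2F word, Cdk6 held 1 E-box and Ccnd3 held 1 copy of the FOXO word GTAAACA, which 3.17% of promoters held. Cdkn2c and Ccnd3 each had another entry, at a different start, that held none of these words. Ccne1 and Cdkn1b held none of the words searched in the window. A match describes the sequence and does not show binding.

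In GC B cells, 8 of the 10 genes differed from naive cells. Ccnd3, Ccne1, Ccne2, Cdk2, Cdk4 and Cdkn2c rose, Ccnd2 and Cdkn1b fell, and Ccnd1 and Cdk6 did not pass the test (edgeR quasi-likelihood, Benjamini-Hochberg adjusted p under 0.05). Of all genes tested, 34.5% were called, 17.9% higher and 16.5% lower. The median log2 fold change of the 10 members was 1.25, against 0.00 over all genes. In these bulk libraries fewer cells of a kind and less RNA per cell cannot be told apart.

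In the activated groups, 7 members were higher and 1 lower than in naive cells, with each of the 3 stimuli. Among all genes the share called was 34.1% for CD40 (19.8% higher, 14.3% lower), 33.6% for CpG (19.7% and 14%) and 33.7% for LPS (19.5% and 14.2%). Ccnd2, Ccnd3, Ccne1, Ccne2, Cdk2, Cdk4 and Cdkn2c rose and Cdkn1b fell. Ccnd2 thus moved in opposite directions in GC and activated cells, measured against the same 3 naive libraries. The members' median log2 fold change was 1.52, 1.53 and 1.46, against 0.17, 0.18 and 0.18 over all genes.

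**Figure D1:**
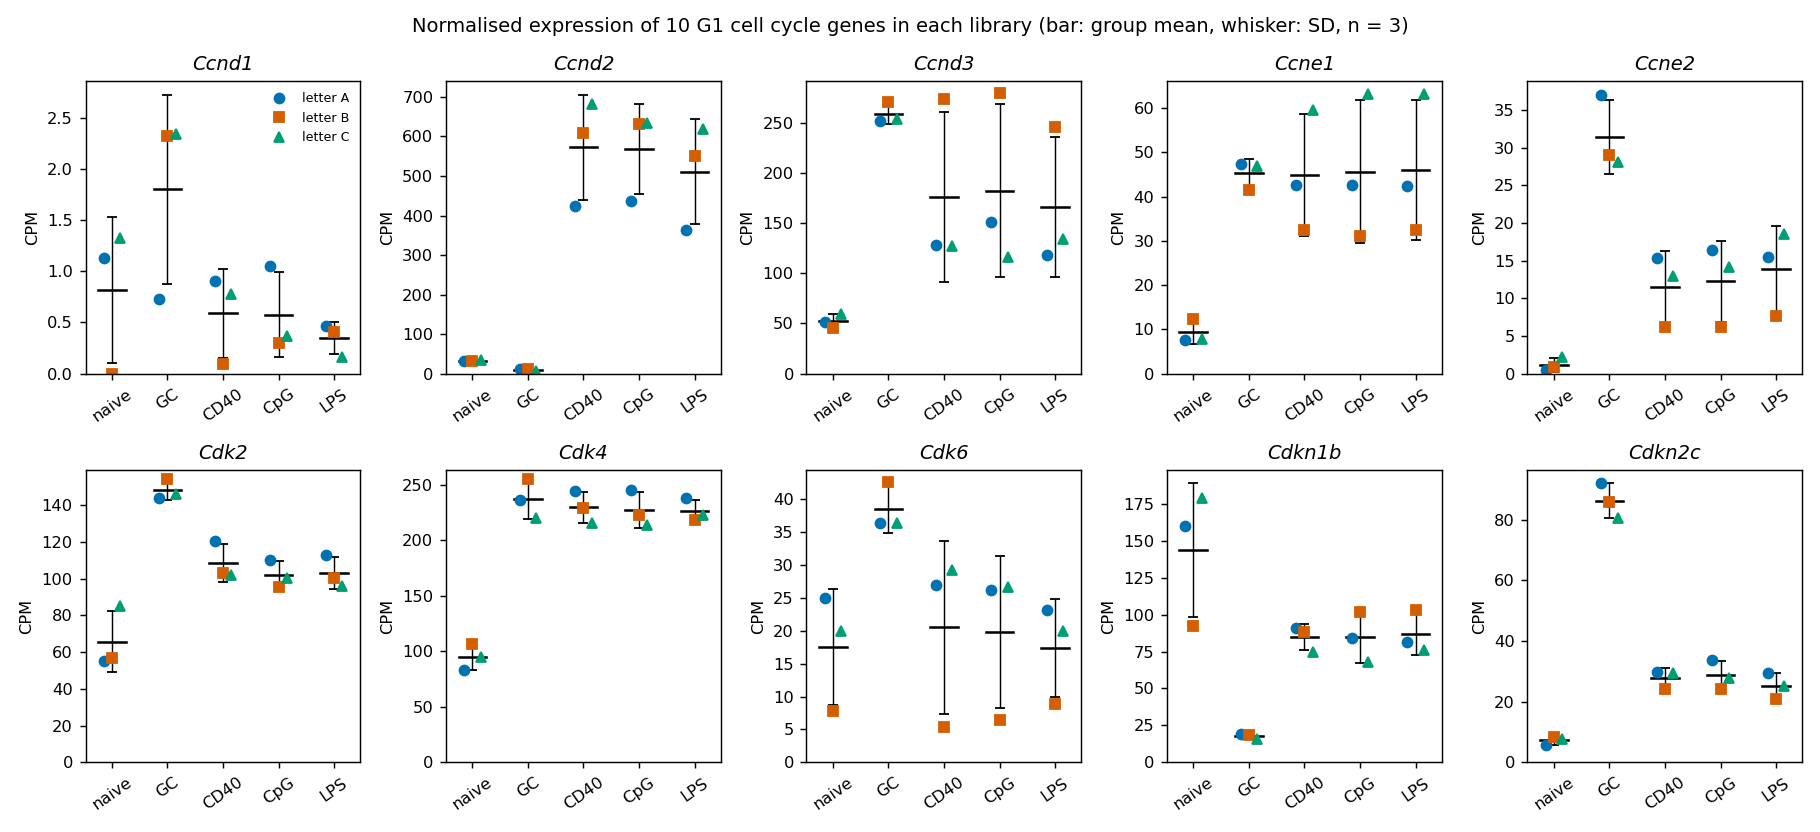
Normalised expression (CPM, linear axis from 0) of each of the 10 genes, with a point for each library, its shape and colour giving the title letter, and bars and whiskers for the mean and SD of 3 libraries. Ccnd2 is at 363 CPM or more in the activated libraries and at 34.9 or less in the others, Cdkn1b is at 19.2 CPM or less in GC libraries and at 67.9 or more in the others, and the B library is the lowest of its group for Cdk6 in naive and activated cells.

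Ccnd2, a D-type cyclin, stood at 32.6, 30.7 and 34.9 CPM in naive libraries A, B and C and at 10.9, 10.7 and 6.1 CPM in GC. It stood at 425, 609 and 683 CPM with CD40, at 437, 632 and 635 with CpG and at 363, 549.6 and 619.8 with LPS. The 3 kinds of cells did not overlap: every activated library lay above every naive library, and every naive library above every GC library. In GC cells Ccnd2 fell by 1.83 on the log2 scale (SE 0.26, 3.55-fold, adjusted p = 8.21e-05). It rose in activated cells by 4.13 (SE 0.29, adjusted p = 1.16e-07) with CD40, 4.12 (1.19e-07) with CpG and 3.96 (1.65e-07) with LPS, or 15.6-fold to 17.5-fold. Set against GC cells directly, it was higher by 5.95 (SE 0.31, 62-fold, adjusted p = 1.57e-08), 5.94 (1.33e-08) and 5.79 (1.61e-08). This was the largest difference of any member in those 3 comparisons.

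Ccnd3, the D-type cyclin needed for GC expansion, stood at 51.8, 45 and 59.4 CPM in naive libraries and at 252, 271 and 254 CPM in GC. In activated libraries A, B and C it stood at 128, 274 and 127 CPM with CD40, at 151, 279.9 and 116 with CpG and at 118, 246 and 134 with LPS. All naive libraries lay below all others. The 3 activated B libraries lay at 246 to 279.9 CPM, around the GC range of 252 to 271, whereas the 6 A and C libraries lay between naive and GC. Ccnd3 rose by 2.32 log2 (SE 0.38, 4.98-fold, adjusted p = 0.000318) in GC cells and by 1.76 (SE 0.37, 0.00248), 1.81 (0.00212) and 1.67 (0.00337) with CD40, CpG and LPS. Between activated and GC cells it did not pass the test, at -0.55 (95% interval -1.34 to 0.23, adjusted p = 0.292), -0.51 (0.341) and -0.64 (0.22). Without CD40 library B, the CD40 difference was -1.08 (adjusted p = 0.0445).

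Ccnd1, the third D-type cyclin, was near the limit of detection. The naive libraries held 1.13, 0 and 1.32 CPM, where 0 counts allow up to 0.092 CPM, and the GC libraries 0.732, 2.32 and 2.34 CPM. The 9 activated libraries ranged from 0.0955 to 1.05 CPM, with a median of 0.406, and overlapped the naive range. Ccnd1 passed the test in none of these comparisons (adjusted p = 0.534 for GC, 0.815, 0.799 and 0.497 for CD40, CpG and LPS against naive). Its exons share 1100 bases with LTO1 on the opposite strand, which had 504 to 1634 counts, and whether the counting used strand is not given in the sources used here.

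Because longer transcripts collect more reads, levels were compared between genes only per kilobase of exon. The summed level of the D-type cyclins was 9.59 ± 1.18 CPM per kb in naive cells (SD, n = 3), 30.9 ± 1.42 in GC, 81 ± 18.8 with CD40, 81.3 ± 17.7 with CpG and 73.3 ± 18.5 with LPS. Ccnd3 made up 61.8% ± 0.956 of that sum in naive cells, 95.6% ± 0.599 in GC, and 24.5% ± 8, 25.1% ± 8.06 and 25.7% ± 6.79 in the activated groups. In GC cells the rest was 0.98 CPM per kb of Ccnd2 and 0.382 of Ccnd1. In the activated groups the B libraries had the highest share of Ccnd3 and the C libraries the lowest, as with CD40 at 24.4%, 32.6% and 16.6% in A, B and C. No group's range overlapped the naive range. An exact two-sided permutation test gave p = 0.1 for each group against naive, the smallest that 3 libraries against 3 allow. Dividing by the longest transcript instead gave Ccnd3 shares of 71.4% in naive, 97.2% in GC, and 32.9%, 33.7% and 34.4% in activated cells.

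**Figure D2:**
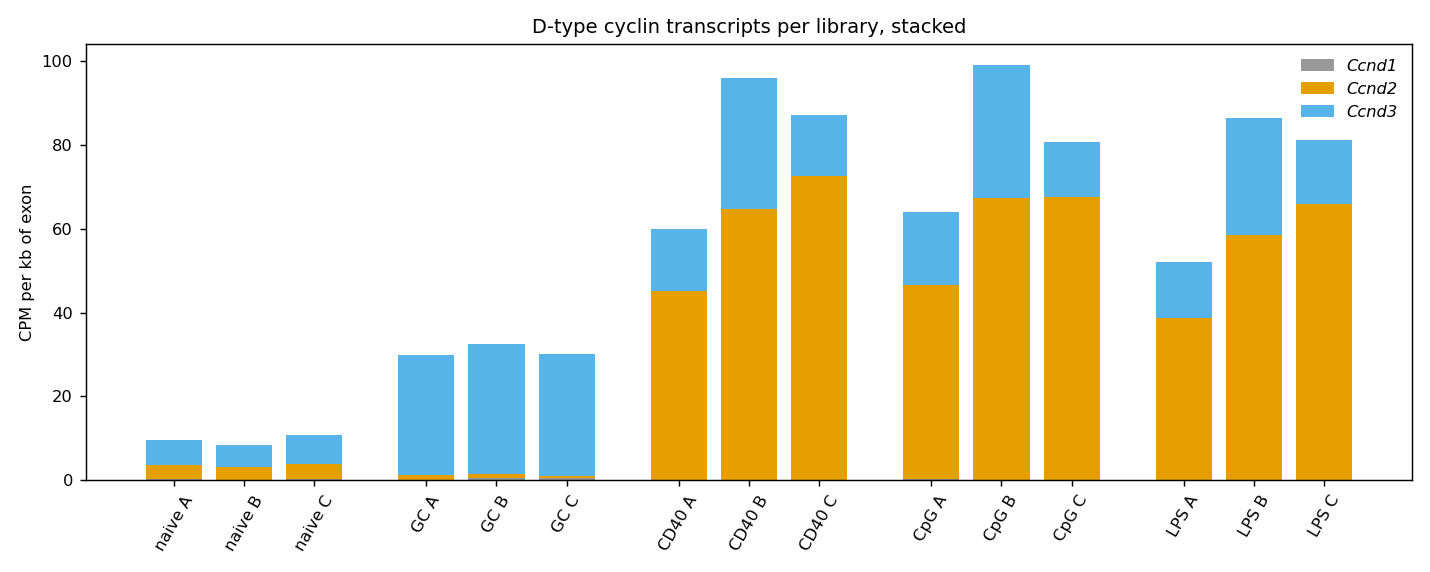
Stacked levels of Ccnd1, Ccnd2 and Ccnd3 in CPM per kb of exon (axis from 0), 1 bar for each library. The GC bars are nearly all Ccnd3 (95.6% on average), the activated bars mostly Ccnd2, and the naive bars are the shortest, with a mean sum of 9.59.

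Cdk4, a kinase partner of the D-type cyclins, stood at 82.9, 107 and 94.8 CPM in naive and at 236, 255 and 220.0 CPM in GC libraries. The activated libraries ranged from 214 to 245 CPM with a median of 223. The GC and activated ranges overlapped, and both lay above every naive library. Cdk4 rose by 1.32 log2 (SE 0.13, 2.5-fold, adjusted p = 2.17e-06) in GC cells and by 1.27 (SE 0.13, 3.96e-06), 1.26 (4.43e-06) and 1.25 (4.38e-06) with CD40, CpG and LPS. Between activated and GC cells the log2 difference was -0.05 (95% interval -0.32 to 0.22), -0.06 (-0.33 to 0.21) and -0.07 (-0.34 to 0.20), and none passed the test. It shares 641 exon bases with Tspan31 on the opposite strand, a gene with 106 to 2105 counts.

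Cdk6, the other kinase of the D-type cyclins, stood at 24.9, 7.82 and 19.9 CPM in naive libraries and at 36.3, 42.6 and 36.4 CPM in GC. It stood at 27, 5.32 and 29.2 CPM with CD40, at 26.2, 6.4 and 26.7 with CpG and at 23.1, 8.92 and 20 with LPS. The GC libraries lay above all 12 others, and the B library was the lowest of each naive and activated group. The GC difference from naive was 1.13 log2 (SE 0.64, 95% interval -0.25 to 2.52, adjusted p = 0.196) and did not pass the test. Against naive, the CD40, CpG and LPS groups differed by 0.22 (-1.15 to 1.60, 0.823), 0.17 (-1.20 to 1.54, 0.867) and -0.02 (-1.39 to 1.35, 0.989), so changes of more than 2-fold in either direction lay inside these intervals. Per kb, Cdk6 was 4.28% ± 2.45 of the summed Cdk4 and Cdk6 level in naive cells, 3.63% ± 0.161 in GC and 2.03% ± 1.32, 1.97% ± 1.15 and 1.73% ± 0.684 in the activated groups. The exact permutation p for these shares against naive was 0.7 for GC and 0.3 for each activated group.

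Cdk2, the kinase of the E-type cyclins, stood at 55, 57 and 84.9 CPM in naive and at 144, 154 and 146 CPM in GC libraries. The activated libraries ranged from 95.7 to 120.3 CPM with a median of 102. No library of one kind overlapped another: naive was lowest, activated next and GC highest. Cdk2 rose by 1.17 log2 (SE 0.16, 2.26-fold, adjusted p = 6.08e-05) in GC cells and by 0.72 (SE 0.16, 0.0032), 0.64 (0.00722) and 0.65 (0.00616) in the activated groups. The calls with CpG and LPS were lost when only the 6 libraries compared entered the fit (0.07 and 0.0581). Against GC, Cdk2 was lower by -0.45 (adjusted p = 0.0494), -0.54 (0.0215) and -0.52 (0.0256). These calls were lost with no filter on low counts (0.145, 0.0671 and 0.0791). The CD40 call was also lost without GC A, B or C or CD40 B or C (0.0537 to 0.0857), and the LPS call without LPS C (0.0535).

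Ccne1, an E-type cyclin, stood at 7.64, 12.4 and 7.91 CPM in naive and at 47.4, 41.6 and 46.9 CPM in GC libraries. The activated libraries A, B and C held 42.6, 32.4 and 59.6 CPM in the CD40 group, 42.6, 31.2 and 63.2 in the CpG group, and 42.5, 32.4 and 63.3 in the LPS group. All activated and GC libraries lay above all naive libraries, and the activated range spanned that of GC. Ccne1 rose by 2.28 log2 (SE 0.32, 4.85-fold, adjusted p = 7.05e-05) in GC cells and by 2.27 (9.04e-05), 2.29 (8.59e-05) and 2.31 (7.85e-05) in the activated groups. Between activated and GC cells it differed by -0.01 (95% interval -0.67 to 0.64), 0.01 (-0.64 to 0.67) and 0.03 (-0.63 to 0.68).

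Ccne2, the other E-type cyclin, stood at 0.44, 0.816 and 2.22 CPM in naive and at 37, 29 and 28.1 CPM in GC libraries. It stood at 15.4, 6.15 and 12.9 CPM with CD40, at 16.4, 6.21 and 14.1 with CpG and at 15.5, 7.62 and 18.6 with LPS. GC libraries were highest and naive libraries lowest, with no overlap between the 3 kinds of cells. In GC cells it rose by 4.76 log2 (SE 0.63, 27.2-fold, adjusted p = 3.78e-05), the largest fold change of the 10 genes in that comparison. In the activated groups it rose by 3.31 (0.000601), 3.41 (0.000507) and 3.59 (0.00035). The difference from GC, -1.45, -1.36 and -1.17, did not pass the test (adjusted p = 0.0583, 0.0747 and 0.123) but did with only the libraries compared (0.00655, 0.0102 and 0.012). DESeq2 also called it lower with CD40 (-1.44, adjusted p = 0.0225) and CpG (-1.34, 0.0351).

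The naive values of Ccne2 rest on 16, 24 and 64 counts in libraries A, B and C. Of all libraries, naive A and B had the fewest genes with a count. The summed E-type cyclin level was 3.84 ± 0.976 CPM per kb in naive cells (SD, n = 3), 26 ± 2.26 in GC, and 20.1 ± 6.09, 20.7 ± 7.16 and 21.3 ± 7.39 with CD40, CpG and LPS. Ccne2 made up 8.86% ± 7.59 of it in naive, where library C alone stood at 17.6%, and 34.4% ± 2.96 in GC (exact permutation p = 0.1, the smallest possible). In the activated groups it made up 16.1%, 16.8% and 18.4% (exact permutation p = 0.3, 0.3 and 0.2 against naive). Ccne1 was therefore the more abundant of the pair in every group. Ccne2 shares 609 exon bases with Ints8 on the opposite strand, which had 286 to 1917 counts.

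Cdkn1b, the inhibitor p27, stood at 160.2, 92.5 and 179 CPM in naive and at 19.2, 18.8 and 16 CPM in GC libraries. It stood at 91, 88.1 and 74.6 CPM with CD40, at 83.9, 102 and 67.9 with CpG and at 81.4, 103 and 76 with LPS. GC libraries lay below all others, and naive library B lay within the activated range. Cdkn1b fell by 3.00 on the log2 scale in GC cells (SE 0.24, 7.98-fold, adjusted p = 3.22e-07). Its fall in the activated groups was smaller, -0.77 (SE 0.22, 0.0162), -0.76 (0.0167) and -0.73 (0.0208), and it was higher than in GC by 2.23 (SE 0.23, 6.74e-06), 2.23 (6.4e-06) and 2.27 (5.71e-06). The 3 calls against naive were all lost without naive A (0.0597, 0.0628 and 0.0736), without naive C (0.0882, 0.0955 and 0.111) and with only the libraries compared (0.0815, 0.102 and 0.1). The CD40 call was also lost without CD40 B or C (0.0504 and 0.0937), the CpG call without CpG A or C (0.0754 and 0.119) and the LPS call without LPS A or C (0.0996 and 0.116).

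Cdkn2c, the INK4 inhibitor p18, stood at 5.66, 8.43 and 7.8 CPM in naive and at 92.2, 86 and 80.7 CPM in GC libraries. The activated libraries ranged from 20.8 to 33.9 CPM with a median of 27.8. The 3 kinds of cells did not overlap. Cdkn2c rose by 3.56 log2 in GC cells (SE 0.22, 11.8-fold, adjusted p = 1.96e-08), which gave it the lowest adjusted p of the 10 genes there. It rose by 1.93 (SE 0.20, 5.68e-06), 1.98 (4.76e-06) and 1.78 (1.16e-05) in the activated groups and was lower there than in GC by -1.63 (SE 0.20, 2.68e-05), -1.59 (3.34e-05) and -1.78 (1.25e-05). The inhibitors thus moved in opposite directions: from naive to GC cells Cdkn1b fell while Cdkn2c rose.

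In all, 4 members were called between each activated group and GC, 2 higher (Ccnd2, Cdkn1b) and 2 lower (Cdkn2c, Cdk2), while 28.4%, 28.9% and 28.1% of all genes were called with CD40, CpG and LPS. The members' median log2 difference was -0.50, -0.52 and -0.58, against 0.05, 0.05 and 0.06.

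**Figure D3:**
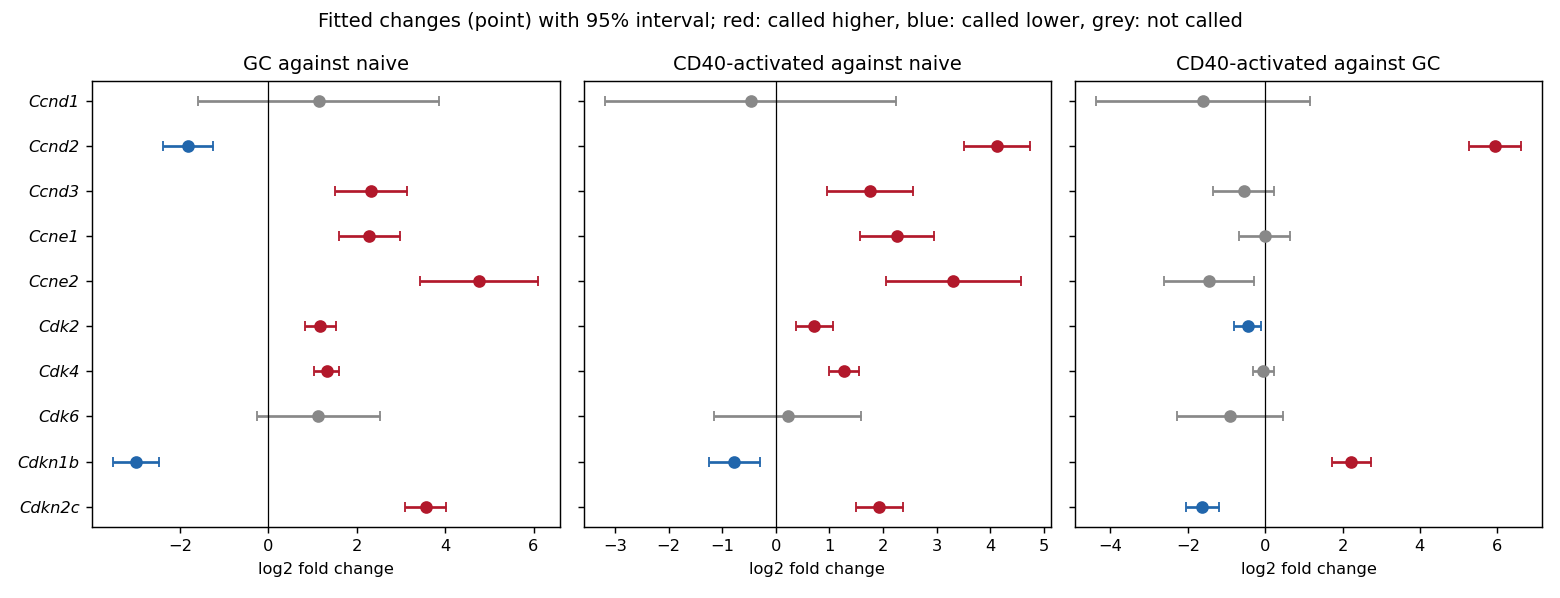
Fitted log2 fold changes of the 10 genes (points) with 95% intervals (lines), coloured by call. The panels give GC and CD40-activated cells against naive, and CD40-activated against GC cells. Against naive, Ccnd2 lies at -1.83 in GC and at 4.13 in CD40-activated cells, and Ccne2 is highest in GC at 4.76. The intervals of Cdk6 and Ccnd1 include 0.

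Within each kind of cell the per-kb levels also had an order. In naive cells Cdkn1b (31.6 CPM per kb) and Cdk4 (29.2) led with overlapping ranges, ahead of Cdk2 (10.6) and Ccnd3 (5.93). Ccne1 (3.5) and Ccnd2 (3.48) overlapped, followed by Cdkn2c (2.72). In GC cells Cdk4 (73) led, ahead of Cdkn2c (32.1) and Ccnd3 (29.5), which overlapped, then Cdk2 (23.8), Ccne1 (17), Ccne2 (8.97), Cdkn1b (3.96), Cdk6 (2.75), Ccnd2 (0.98) and Ccnd1 (0.382), each apart from the next. With CD40 the leaders were Cdk4 (70.6) and Ccnd2 (60.8), which overlapped, ahead of Ccnd3 (20.1), Cdkn1b (18.6), Cdk2 (17.4) and Ccne1 (16.9), which overlapped in turn, then Cdkn2c (10.4), with Ccne2 (3.29) and Cdk6 (1.47) overlapping below it. The order depends on the length used. Per kb of the longest transcript, GC libraries held 65.3 to 70.3 of Ccnd3, 44.1 to 47.2 of Cdk2 and 32.7 to 37.3 of Cdkn2c, which put Cdkn2c below both. On that length naive libraries held 40.4 to 52.3 of Cdk4 and 20.3 to 39.3 of Cdkn1b, which no longer overlapped.

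No member passed the test between the CD40, CpG and LPS groups. Nor did any gene of the table: 0 of 17144 were called by edgeR in any of the 3 comparisons (0%), with 92, 115 and 71 genes at unadjusted p under 0.05 for CpG against CD40, LPS against CD40 and LPS against CpG. DESeq2 called 0, 0 and 1 genes, with 98, 144 and 86 at unadjusted p under 0.05. In a fit of the 9 activated libraries with the letter as a block, 27, 44 and 45 genes were called (0.172%, 0.28% and 0.286%) and again no member in any of 30 tests. The lowest member values there were for Ccnd2, lower with LPS than with CD40 by -0.17 (unadjusted p = 0.00619, adjusted 0.312) and than with CpG by -0.17 (0.00677, adjusted 0.427), and LPS had the lowest Ccnd2 in all 3 letters. Leaving out Ccnd1, every 95% interval of the 27 other tests lay between -0.42 and 0.63 log2.

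Some members were called between the letters of the activated libraries, as was a large share of all genes. In a fit of these 9 with stimulus as a term, 7 members differed between A and B (5 higher in A, 2 lower), where 31.1% of the 15727 genes tested were called. Between A and C 4 did (2 higher in A, 2 lower), where 23.4% were called, and between B and C 5 did (2 higher in B, 3 lower), where 34.8% were called. Under every alternative, 6, 2 and 5 members kept their calls in these 3 comparisons. Each of the 9 libraries had as its nearest library one of the same letter. The stimulus and letter are those in the titles, and an exchange of the labels there cannot be told apart from these data.

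Letter B stood apart in Cdk6, Ccnd3 and Ccne2. Cdk6 averaged 25.4 ± 2.08 CPM in A (SD, n = 3), 6.88 ± 1.85 in B and 25.3 ± 4.75 in C, and was higher in A than in B by 1.89 log2 (SE 0.18, adjusted p = 8.62e-09). Ccnd3 averaged 132 ± 16.9, 267 ± 18.3 and 125 ± 9.12 CPM and was lower in A than in B by -1.01 (SE 0.08, 1.82e-10). Neither differed between A and C beyond the test (adjusted p = 0.985 and 0.622). Ccne2 was also lower in B, at 15.7 ± 0.528, 6.66 ± 0.835 and 15.2 ± 2.97 CPM (A against B 1.25, adjusted p = 2.03e-06).

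Ccne1 followed another order, at 42.6 ± 0.0392, 32 ± 0.72 and 62 ± 2.09 CPM in A, B and C, with all 3 pairs called (A against B 0.41, 0.000779, A against C -0.55, 3.26e-05, B against C -0.96, 3.57e-09). Ccnd2 was lowest in A, at 408 ± 39.5 CPM, against 597 ± 42.7 in B and 646 ± 32.8 in C (A against B -0.55, 2.34e-08, A against C -0.67, 8.3e-10). Cdkn1b was higher in B than in C by 0.42 (0.000157). Cdk4 varied little, at 242 ± 3.38, 223 ± 5.57 and 217 ± 4.73 CPM, with no pair called by edgeR. DESeq2 called Cdk4 between A and C (0.15, adjusted p = 0.0319), as edgeR did without LPS C (0.0488). The Cdk2 and Cdkn1b calls between A and C, 0.20 (adjusted p = 0.0292) and 0.23 (0.0403), and that of Cdk2 between A and B, 0.20 (0.0204), were each lost without 1 library in several cases. The Cdkn1b call between A and C was also lost with DESeq2 (0.22, adjusted p = 0.0615).

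Markers of other B cell states moved with the letters. The 6 plasma cell markers summed to 1735 to 1869 CPM in A, 1143 to 1226 in B and 3300.3 to 4907 in C. The 6 follicular markers summed to 1379 to 1443, 587 to 648 and 500.4 to 537, and the 6 GC markers to 999 to 1090.1, 603 to 698 and 485 to 628. Myeloid markers stood at 36.6 to 41.4, 44.6 to 48 and 26.8 to 29.9 CPM. Their part in the members' differences was not tested.

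**Figure D4:**
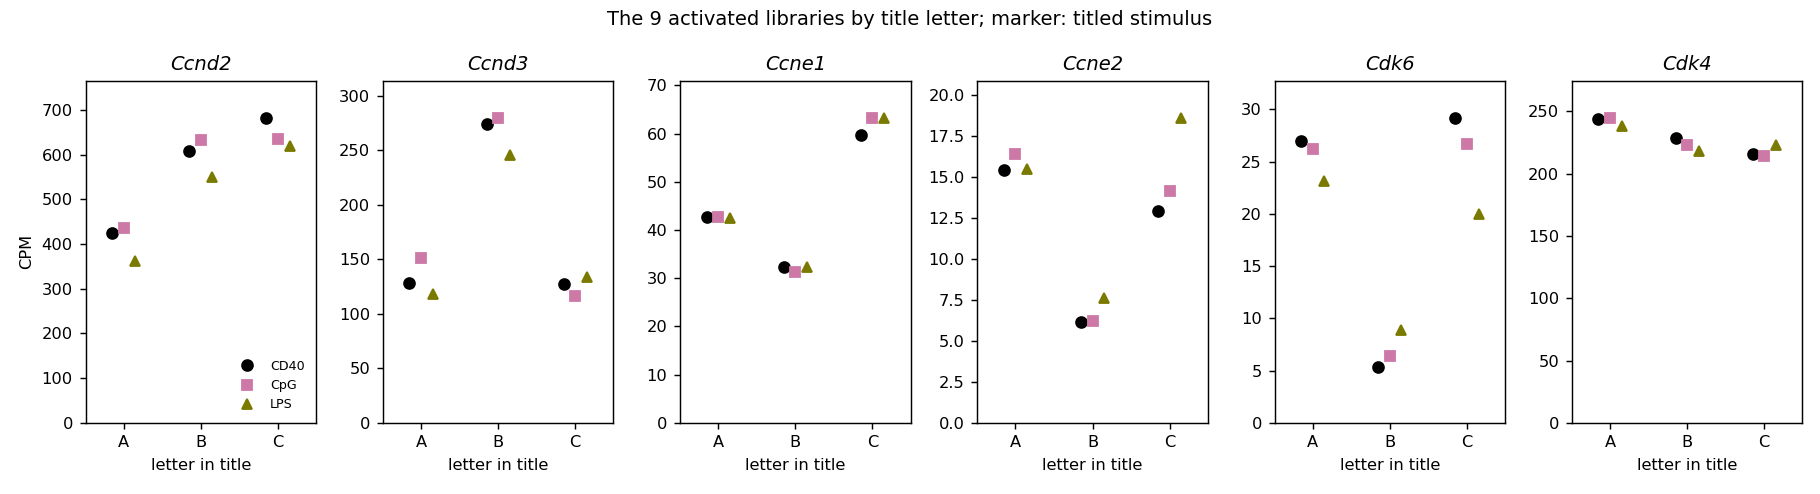
CPM of members in the 9 activated libraries (axes from 0), grouped by title letter, with the marker giving the titled stimulus. Points of 1 letter lie close together whatever the stimulus: Cdk6 averages 6.88 CPM in B against 25.4 in A and 25.3 in C, and Ccnd3 averages 267 against 132 and 125.

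The other genes of the pathway were described by lists. Of the 13 RB family and E2F genes, 9 rose and 2 fell in GC cells, against 17.9% and 16.5% of all genes (median log2 fold change 1.22, all genes 0.00) and 6 rose with each stimulus, against 19.8%, 19.7% and 19.5% (0.78, 0.88 and 0.64, all genes 0.17 to 0.18). E2f1, an activating E2F factor, went from 6.35 ± 0.985 CPM in naive to 88 ± 4.53 in GC and 42.6 ± 6.61 with CD40 (log2 3.79, adjusted p = 2.84e-09, and 2.74, 6.48e-08). The repressor E2fs also rose, E2f7 from 0.0925 ± 0.16 to 27.3 ± 4.19 and 10.5 ± 3.81 CPM, and E2f8 from 1.82 ± 1.1 to 101 ± 5.13 and 35.5 ± 12.4 CPM. In GC cells Rb1, which encodes RB, fell by 1.29 on the log2 scale (70.7 ± 15.4 to 28.9 ± 1.9 CPM, adjusted p = 6.19e-05), as did its relative Rbl2. With CD40 it stood at 69.3 ± 12.8 CPM and did not pass the test (-0.03, adjusted p = 0.919).

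Among the other 5 CDK inhibitors, 2 rose in GC cells (17.9% of all genes) and 3 with each stimulus (19.8%, 19.7% and 19.5% of all genes). Cdkn1a, the inhibitor p21 and a p53 target, stood at 0.766 ± 0.939 CPM in naive and 2.18 ± 1.04 in GC cells (1.45, adjusted p = 0.155, and 3.16, 0.00981 without naive A). It reached 174 ± 50.9 CPM with CD40 (7.76, adjusted p = 2.52e-05). It was higher with CD40 than in GC cells by 6.31 log2 (adjusted p = 8.08e-05). Cdkn1b, of the same family, was also higher in activated than in GC cells but lower than in naive. By letter, Cdkn1a averaged 191, 203 and 118 CPM in activated cells. Cdkn2a, which encodes the INK4 inhibitor p16 and ARF, had 0 counts in every naive library, where 3 counts over the group would be 0.0317 CPM. It stood at 3.15 CPM in GC, at least 99.3-fold higher, with CD40 at 13.8 CPM, with CpG at 14.5 and with LPS at 17, at least 435-, 459- and 538-fold higher. In activated cells it averaged 3.84 CPM in letter A against 20.8 and 20.7 in B and C.

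Genes that act on the turnover and modification of the members changed in part. Of the 8 turnover genes, 4 rose in GC cells, where 17.9% of all genes did, and 5 with each stimulus, where 19.8%, 19.7% and 19.5% did. Cks1b, a cofactor in the destruction of p27, went from 7.64 ± 4.11 CPM in naive to 136 ± 4.61 in GC and 75 ± 3.38 with CD40 (4.16, adjusted p = 1.23e-07, and 3.29, 1.13e-06). Skp2, the F-box protein that recognises p27, went from 2.29 ± 2.11 to 24.1 ± 1.4 and 13.4 ± 4.56 CPM (3.40, 0.0114, and 2.55, 0.0412). The Skp2 calls were lost with only the libraries compared (0.0813 and 0.245), and with CD40 also without naive A (0.0856) or without CD40 A, B or C (0.053 to 0.0936). Of the 7 CDK activating and inhibiting enzymes, 5 rose in GC cells and 3 with each stimulus, beside the same shares of all genes. Cdc25a, a phosphatase that activates Cdk2, rose from 19.6 ± 4.52 to 65.9 ± 5.11 and 71 ± 8.56 CPM. Wee1, a kinase that inhibits CDKs, rose from 2.05 ± 2.96 to 46.9 ± 3.25 and 31 ± 6.83 CPM, the latter not called with only the libraries compared (adjusted p = 0.0944). Cdc25b, which acts later in the cycle, rose in GC cells (89 ± 32.4 to 363 ± 16.6 CPM, 2.03, adjusted p = 0.0146, or 0.0652 without naive B) and stood at 108 ± 52.5 CPM with CD40.

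Genes of S phase entry and of mitosis rose nearly without exception. Of 20 S phase entry genes, 19 rose in GC cells, where Cdt1 was not called and 17.9% of all genes rose. With each stimulus 19 rose and Cdt1 fell, where 19.8%, 19.7% and 19.5% of all genes rose. Their median log2 fold change was 3.23 in GC and 2.40, 2.40 and 2.33 in activated cells. Cdc6, which loads the replicative helicase, went from 0.497 ± 0.439 CPM to 87 ± 7.31 in GC and 54.3 ± 14.8 with CD40. Mcm10, which helps start replication forks, went from 0.809 ± 1.4 to 93.9 ± 6.09 and 46.9 ± 4.8 CPM. All 8 mitotic genes rose in GC and with each stimulus, such as Ccnb1 (0.952 ± 0.832, 173 ± 11.4 and 112 ± 31 CPM), Ccnb2 (1.82 ± 1.58, 203 ± 15.8 and 81.1 ± 8.76) and the kinase Plk1 (1.56 ± 1.58, 161 ± 5.05 and 76 ± 16.3), with medians of 5.59, 4.72, 4.68 and 4.65. Against GC cells, 13, 13 and 16 of the 20 S phase genes and 1, 2 and 2 of the 8 mitotic genes were lower with CD40, CpG and LPS, and none was higher. Of all genes 12.4%, 12.6% and 12.2% were lower in these comparisons.

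Among the 10 genes listed as upstream regulators of D-type cyclins and p27, more fell than rose. In GC cells 1 rose and 5 fell, against 17.9% and 16.5% of all genes. With each stimulus 2 rose and 7 fell, against 19.8% and 14.3% of all genes for CD40, 19.7% and 14% for CpG and 19.5% and 14.2% for LPS. Myc, an activator of growth genes, fell in GC cells (257 ± 157 to 31.4 ± 6.12 CPM, -3.03, adjusted p = 6.71e-05) and stood at 199 ± 59.2 CPM with CD40 (-0.37, 0.492). Klf2, a factor of quiescence, fell from 1179 ± 426 CPM to 6.94 ± 2.84 and 95.5 ± 35.4. Foxo1, a factor of the family that activates Cdkn1b, stood at 183 ± 15.4 CPM in GC against 223 ± 32.5 in naive cells (-0.28, 0.363) and fell to 109.6 ± 29 with CD40 (-1.02, 0.00309). Stat5a, a mediator of cytokine signals, rose with CD40 from 53.8 ± 5.92 to 272 ± 149.8 CPM (2.34, 0.00161) and averaged 224, 461 and 172 CPM in letters A, B and C.

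**Figure D5:**
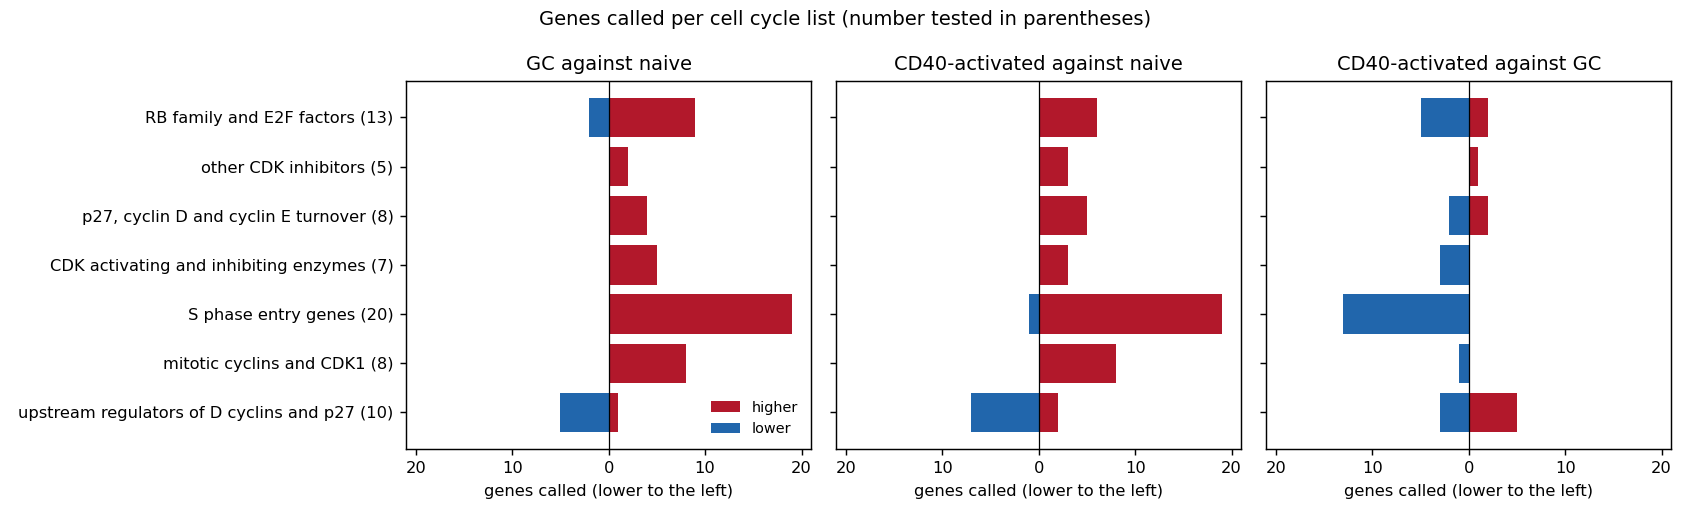
Number of genes called higher (right) and lower (left) in each list, with the number tested in parentheses. The panels give GC and CD40-activated cells against naive, and CD40-activated against GC cells. Against naive cells, the S phase and mitotic lists lie almost wholly to the right (19 of 20 and 8 of 8 in GC), and the upstream regulators mostly to the left.

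The genes whose log2 CPM followed each member most closely over the 15 libraries are given as a description, since these libraries share the 5 groups. For Cdkn2c they were Lmnb1, Hmgb2 and Dut (Pearson r 0.990, 0.989 and 0.989), and for Ccne2 Atad2, H2afz and Pou2af1 (0.986, 0.981 and 0.980). For Ccne1 they were Etf1, Timm23 and Vcp (0.991, 0.981 and 0.980), and for Cdk4 Apobec3, Blm and Gas2l3 (0.988, 0.984 and 0.982). Ccnd2 was followed by Eloa, Csf1 and Uhrf1bp1 (0.987, 0.986 and 0.986) and Ccnd3 by Hnrnpl, Eif2a and Sugt1 (0.975, 0.964 and 0.963). Cdk2 was followed by Gm47813, B9d1 and Rbbp8 (0.978, 0.967 and 0.964), Cdk6 by Trp53inp1, Pbrm1 and Rnf115 (0.949, 0.935 and 0.915), and Cdkn1b by Foxo3, Aff1 and Dop1b (0.984, 0.982 and 0.980). For Ccnd1, at its low counts, the highest values were 0.869, 0.865 and 0.849, for Parp1, Invs and Mier3.

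On GRCm38 with the GENCODE M21 annotation, the D-type cyclins lie at chr7:144929931-144939925 (Ccnd1, ENSMUSG00000070348), chr6:127125162-127152193 (Ccnd2, ENSMUSG00000000184) and chr17:47505051-47599691 (Ccnd3, ENSMUSG00000034165). Ccne1 (ENSMUSG00000002068) lies at chr7:38097984-38107534 and Ccne2 (ENSMUSG00000028212) at chr4:11191351-11204779. The kinases lie at chr10:128697939-128705031 (Cdk2, ENSMUSG00000025358), chr10:127063534-127067920 (Cdk4, ENSMUSG00000006728) and chr5:3341485-3531008 (Cdk6, ENSMUSG00000040274). The inhibitors lie at chr6:134920401-134925513 (Cdkn1b, ENSMUSG00000003031) and chr4:109660876-109667189 (Cdkn2c, ENSMUSG00000028551). All 10 are protein coding, and their counts cover whole genes, so transcript variants were not told apart. Ccnd3 shares 361 exon bases with Bysl on the opposite strand, at 618 to 1671 counts, and Cdk2 shares 34 with Pmel. With counting strand not given in the sources used here, reads from shared bases are uncertain.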

How the data were processed

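RNA sequencing of 15 B cell libraries gave a deposited table of counts, whole numbers of reads per gene, which the authors made with STAR 2.7.10a and featureCounts 2.0.6 on mm10/GRCm38, per the submitters' processing notes, which also name DESeq2. The handling of strand and multi-mapping reads, and the annotation release, are not given in the sources used here. Symbols were found for 54723 of 54838 gene IDs, and the other 115 held at most 0.00872% of a library. Totals were 25397624 to 36272197 counts. For the members counting error is small except for Ccnd1 (0 to 85 counts) and for Ccne2 in naive cells (16 to 64 counts). Other named genes were also near 0 in naive cells, such as Mcm10 (0 to 2.43 CPM) and Wee1 (0 to 5.45). What the low number of genes with a count in naive A and B means for naive values was not tested. Limits from 0 counts (3 counts) cover counting error only.

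Counts were tested in R 4.3.3 with edgeR 4.0.16 (TMM, filterByExpr, robust glmQLFit, 1 mean per group over all 15 libraries), two-sided, with p-values adjusted (Benjamini-Hochberg) over the 17144 genes separately for each comparison and called under 0.05. Standard errors and 95% intervals derive from the F statistic and are approximate. Levels between genes are CPM per kb of union exon (GENCODE M21), and shares were compared by exact permutation tests. The letters were compared among the 9 activated libraries with stimulus as a term. Deviations from group means correlated at 0.561 to 0.692 between same-letter activated libraries (9 pairs) and at -0.107 to 0.103 elsewhere (21 pairs). A shared deviation by letter was thus seen among the activated groups only. Whether naive or GC libraries share a source with activated libraries of the same letter cannot be told from this.

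Alternatives were DESeq2 1.42.0, its size factors in edgeR, no filter, only the libraries compared, a letter block and leaving out each library. Beside the members, the text names per list up to 4 genes: the 2 called with the largest change in GC and the 2 with CD40 against naive cells, at 10 CPM or more in a group, plus Cdkn1a, Rb1, E2f1, Skp2, Myc and Foxo1. For likeness, log2(CPM + 0.5) was used. The members and lists were chosen with earlier results of these data known. The fits were tested on simulated data.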

Additional observations from a re-analysis of the deposited data

How the results depend on the processing

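Of 32 calls of members against naive cells, 27 held under every alternative, all 8 in GC cells among them; the others were the Cdkn1b calls in the 3 activated groups and those of Cdk2 with CpG and LPS. A replicate block for the letter over 15 libraries treats the letter as 1 effect in all groups. With it, 9 members were called in GC against naive cells (Cdk6 1.48, adjusted p = 0.0178, joined). There were 8 in each activated group against naive, 6 in each against GC (Ccne2 and Cdk6 joined) and 0 between stimuli. Of all 17144 genes the block called 6199 in GC against naive, where the main fit called 5911. For CD40, CpG and LPS it called 6166, 6088 and 6115 against naive and 5203, 5293 and 5153 against GC. The main fit called 5849, 5768 and 5779 against naive and 4865, 4958 and 4809 against GC. With only the libraries compared, 7 members were called for LPS against GC in place of 4. The calls over all genes also rose there, to 6880 of 15202 from 4809 of 17144. In that setting 3005, 3137 and 3349 genes were called for CD40, CpG and LPS against naive, in place of 5849, 5768 and 5779. LPS against CpG gave 1 called gene with no filter and with DESeq2. With the letter block among the 9 activated libraries, 27, 44 and 45 genes were called between stimuli against 0 without it. The cause was not tested. Leaving out 1 library at a time gave 2 to 4 members between letters A and C. There were 2 without CD40 A, where 2819 of 16414 genes were called, and 2 without CpG A, where 3119 of 16550 were. Leaving out a library also moved the GC minus naive difference in the Cdk6 share from -0.654 percentage points to between -1.96 and 0.467, above 0 without naive A. Ccnd1 and Cdk6 had the widest intervals, Ccnd1 at counts near 0 and Cdk6 with its spread between letters.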
